A study of Homo sapiens with 20 samples.

Results

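Glycolysis, the pentose phosphate pathway and glycogen metabolism were followed through 35 genes chosen by symbol, all of which were found once among the 58735 gene identifiers counted in AC16 cells. AC16 is an established human cell line described as cardiomyocyte, which divides in culture. In 5 libraries the cells had been given electronic cigarette aerosol and in 5 libraries filtered air, both at an air–liquid interface, a culture in which the upper face of the cells is open to the gas. All cells were grown beforehand in DMEM/F12 with fetal bovine serum, the labels name no change of genotype, and the series describes the 5 samples of each group as biological replicates of a single line. The aerosol's make-up, dose and exposure time are not stated in the labels.

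Glucose enters the cell through carriers of the SLC2A family, is split by the glycolytic enzymes to pyruvate with a net gain of ATP and NADH, and can leave as lactate through carriers of the SLC16A family. The pentose phosphate pathway branches off at glucose 6-phosphate and yields NADPH and ribose 5-phosphate, while glycogen stores glucose in branched chains. Heart muscle normally burns mostly fatty acids, whereas cultured, dividing cells lean on glycolysis. Many glycolytic genes are known targets of the hypoxia-inducible factor HIF1.

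Counts summed to between 60482726 and 72099157 per aerosol library and to between 65902331 and 88806394 per filtered air library. On the first principal component, aerosol libraries 4 and 5 lay far from the remaining 8, so log2 fold changes that move by over 1.5 times without both are given both ways. The 2 libraries also differed from each other. On the second component aerosol library 4 was the highest of all, at 167, and aerosol library 5 the lowest, at -89.3. Mitochondrially encoded genes took 12.4 to 19.5% of counts in aerosol libraries and 7.75 to 10.3% in filtered air libraries, highest in aerosol libraries 4 and 5. Of 19 cardiomyocyte markers, 9 were at 0 in all 10 libraries, TNNT2, MYH6 and MYL7 among them. TTN, GATA4 and MEF2C were the 3 that averaged at least 1 CPM (counts per 1000000 of the scaled library size). Their means were 40.9, 10.8 and 3.56 CPM in aerosol libraries and 26.8, 12.7 and 3.09 CPM in filtered air libraries. All 12 fibroblast markers averaged at least 1 CPM over the 10 libraries, with a summed level of 6203 to 7133 CPM in aerosol libraries and 8222 to 9035 CPM in filtered air libraries. Most of that sum was VIM and COL1A1, with means of 3912 and 1897 CPM in aerosol libraries and 5532 and 2208 CPM in filtered air libraries. DCN, TCF21 and PDGFRA averaged only 0.951, 1.01 and 2.68 CPM in aerosol libraries and 1.54, 1.18 and 2.07 CPM in filtered air libraries. In that list VIM, the intermediate filament vimentin, fell, FAP, a cell surface protease, rose, and the part of these markers in the results below was not tested. Endothelial and epithelial lists summed to at most 3.71 and 7.07 CPM in any library, and of 8 leukocyte markers only CD68 averaged at least 1 CPM. In bulk RNA, fewer cells of a type and less RNA per cell cannot be told apart.

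After the aerosol, 15 of the 35 genes fell and none rose, by between 25.5% and 47.4% (adjusted p under 0.05 in edgeR's quasi-likelihood test, by Benjamini-Hochberg over all 20166 genes tested). Over all genes tested, 1.39% fell and 1.62% rose by the same rule, 3.01% in all. The 35 genes were chosen with earlier results of these data known, so setting them beside all genes is a description and not an independent test. All 35 genes passed the filter on low counts, 32 had a log2 fold change below 0, and the median was -0.50, against a median of -0.00417 over all genes, of which 50.4% lay below 0. The groups did not overlap, with every aerosol library lower, in 17 of the 35 genes, against 3.93% of all genes tested. The shares over all genes were not matched to the 35 genes for level. The enzymes of glycolysis proper held 11 of the 15 falls. Upper glycolysis, from hexokinase to triose phosphate isomerase, had 6 of 9 genes lower with a median of -0.68, and lower glycolysis, from GAPDH to lactate dehydrogenase, had 5 of 9 with a median of -0.73. By the same rule 1 of 5 transport genes, 1 of 6 pentose phosphate genes and 2 of 6 glycogen genes fell, with medians of -0.47, -0.31 and -0.39.

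**Figure D1:**
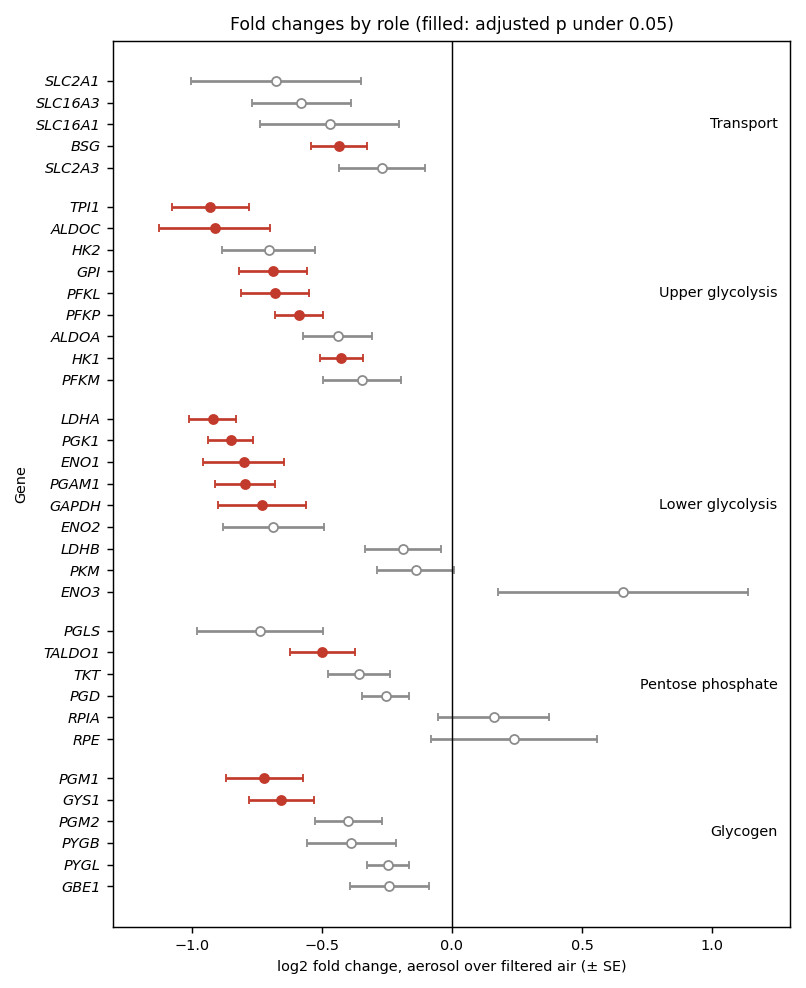
Log2 fold change of aerosol over filtered air (x axis, point with standard error) for each of the 35 genes, ordered by size within 5 roles. Filled points mark the 15 genes past an adjusted p of 0.05, all of them below 0, and ENO3, RPIA and RPE are the 3 genes with a point above 0.

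Together the 35 genes took 0.854, 0.878, 0.756, 0.617 and 0.555% of all counts in aerosol libraries 1 to 5, against 1.18, 1.19, 1.27, 1.15 and 1.08% in filtered air libraries 1 to 5. The lowest filtered air library thus lay above the highest aerosol library, and aerosol libraries 4 and 5 were the lowest of all. A 95% Wilson interval for such a share was at most 0.00515 percentage points wide, counting error only. Mitochondrially encoded genes, and the nuclear RNA MALAT1 with 0.784 to 3.81% of counts in aerosol libraries and 0.291 to 0.390% in filtered air libraries, are part of that total. With both left out of the total, the 35 genes took 0.724 to 1.01% in aerosol libraries and 1.17 to 1.40% in filtered air libraries. The difference of group means was -0.44 percentage points with all counts, -0.42 without those genes in the total, and -0.34 without aerosol libraries 4 and 5.

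**Figure D2:**
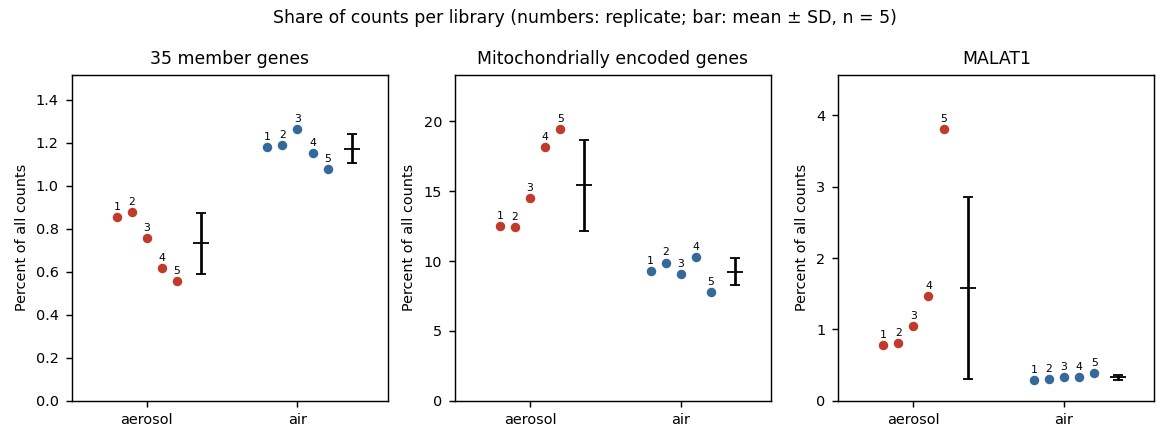
Percent of all counts per library (y axes, from 0) on the 35 genes, on mitochondrially encoded genes and on MALAT1, with aerosol left of filtered air; points are libraries with their replicate number and bars give mean ± SD of 5. The 35 genes lie at 0.555 to 0.878% in aerosol libraries, all below the filtered air libraries at 1.08 to 1.27%, while both other shares are highest in aerosol libraries 4 and 5.

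Among the carriers, the glucose and lactate transporters did not pass, and only BSG, a partner of the lactate carriers, fell. SLC2A1, the main basal glucose carrier, was at 28.7, 35.8, 15.6, 19.7 and 11.1 CPM in aerosol libraries 1 to 5, against 42.0, 38.0, 47.3, 33.0 and 16.9 CPM in filtered air libraries 1 to 5. The groups overlapped, the lowest library of each group was replicate 5, and the log2 fold change of -0.68 ± 0.33 did not pass (edgeR adjusted p = 0.299). It was -0.42 without aerosol libraries 4 and 5. SLC2A3, a high-affinity glucose carrier, ranged over 23.7 to 41.6 CPM after the aerosol and 30.5 to 40.8 CPM in filtered air (log2 fold change -0.27 ± 0.17, and -0.41 without aerosol replicate 5). SLC16A3, a lactate exporter of glycolytic cells, was at 43.2 ± 11.6 CPM after the aerosol and 64.5 ± 10.8 CPM in filtered air (mean ± SD, n = 5 each), with a log2 fold change of -0.58 ± 0.19 and an edgeR adjusted p of 0.122. Without aerosol libraries 4 and 5 it was at -0.35. SLC16A1, the more widespread lactate carrier, was at 81.3, 36.7, 39.8, 52.1 and 34.1 CPM in aerosol libraries 1 to 5, against 35.6, 73.9, 73.9, 72.6 and 81.9 CPM in filtered air libraries 1 to 5. Replicate 1 was the highest aerosol library and the lowest filtered air library. The log2 fold change was -0.47 ± 0.27, and -0.74 without aerosol replicate 1. BSG, the membrane glycoprotein basigin that brings both lactate carriers to the cell surface, fell by 26.0%. It was at 189, 213, 194, 178 and 158 CPM in aerosol libraries 1 to 5, against 233, 288, 273, 254 and 212 CPM in filtered air libraries 1 to 5 (log2 fold change -0.43 ± 0.11, edgeR adjusted p = 0.0497). The groups overlapped, with aerosol library 2 just above filtered air library 5. The call of BSG sat at the threshold: it was lost under each of 3 other scalings (edgeR adjusted p up to 0.0846), without both aerosol libraries 4 and 5 (0.123), and without each single library other than aerosol 2 and filtered air 5 (up to 0.133, without filtered air replicate 3).

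The hexokinases, which trap glucose as glucose 6-phosphate, were both lower on average. HK1, the widespread isozyme, was at 356, 349, 356, 423 and 392 CPM in aerosol libraries 1 to 5, against 475, 520.4, 505, 534 and 486 CPM in filtered air libraries 1 to 5. All aerosol libraries lay below all filtered air libraries, and HK1 fell by 25.5% (log2 fold change -0.43 ± 0.08, edgeR adjusted p = 0.0178). HK2, the inducible isozyme of muscle and tumours, was at 28.4, 30.8, 29.3, 17.9 and 24.5 CPM in aerosol libraries 1 to 5, against 41.9, 44.4, 51.3, 30.1 and 45.4 CPM in filtered air libraries 1 to 5. Its groups overlapped through aerosol library 2 and filtered air library 4, and its log2 fold change of -0.70 ± 0.18 did not pass (edgeR adjusted p = 0.0531). HK2 did pass with DESeq2 (adjusted p = 0.00978), with limma-voom (0.0498), with no filter on low counts (edgeR adjusted p = 0.0401), and without aerosol replicate 2 (0.0480) or filtered air replicate 4 (0.0482). GPI, which turns glucose 6-phosphate into fructose 6-phosphate, fell by 37.9%. It was at 199.7, 226, 168, 141 and 145 CPM in aerosol libraries 1 to 5, against 287, 286, 312, 270.4 and 261 CPM in filtered air libraries 1 to 5 (log2 fold change -0.69 ± 0.13, edgeR adjusted p = 0.0169), with no overlap between groups. The call of HK1 was lost with upper-quartile scaling (edgeR adjusted p = 0.0583) and without aerosol replicate 3 or filtered air replicate 2, 3 or 4 (up to 0.0598). That of GPI was lost without filtered air replicate 3 (0.0539).

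Phosphofructokinase commits the sugar to glycolysis, and genes for 2 of its 3 subunits fell. PFKP, the platelet-type subunit, was at 254, 251, 214, 210.3 and 204 CPM in aerosol libraries 1 to 5, against 341, 361, 358, 335 and 308 CPM in filtered air libraries 1 to 5. It fell by 33.4% with no overlap (log2 fold change -0.59 ± 0.09, edgeR adjusted p = 0.00801), and its call held without each single library. PFKL, the liver-type subunit, was at 66.6, 65.0, 50.3, 46.8 and 51.3 CPM in aerosol libraries 1 to 5, against 91.1, 93.5, 99.6, 91.4 and 72.7 CPM in filtered air libraries 1 to 5, and fell by 37.6% (log2 fold change -0.68 ± 0.13, edgeR adjusted p = 0.0184). Every aerosol library again lay below every filtered air library. PFKM, the muscle-type subunit, was at 67.3 ± 14.9 CPM after the aerosol and 85.5 ± 6.44 CPM in filtered air (SD, n = 5 each), with -0.34 ± 0.15 as its log2 fold change, which did not pass (edgeR adjusted p = 0.244), and -0.16 without aerosol libraries 4 and 5. Its groups overlapped. The call of PFKL was lost without aerosol replicate 3 or filtered air replicate 1, 2, 3 or 4 (edgeR adjusted p up to 0.0617) and without both aerosol libraries 4 and 5 (0.0513).

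The aldolases cut fructose bisphosphate into triose phosphates, which TPI1 interconverts. TPI1 (GRCh38.p14, chromosome 12, 6867420 to 6870948) fell by 47.4%. It was at 409, 433, 349, 281 and 242 CPM in aerosol libraries 1 to 5, against 624, 692, 744, 624 and 575 CPM in filtered air libraries 1 to 5 (log2 fold change -0.93 ± 0.15, edgeR adjusted p = 0.00929). The groups were far apart, and aerosol libraries 4 and 5 were the lowest. Without those libraries its log2 fold change was -0.72 and still past the threshold (edgeR adjusted p = 0.00897). ALDOC, the aldolase best known from brain, was at 15.5, 15.2, 15.6, 8.66 and 8.53 CPM in aerosol libraries 1 to 5, against 23.4, 26.7, 27.1, 19.0 and 23.3 CPM in filtered air libraries 1 to 5. It fell by 46.8% (log2 fold change -0.91 ± 0.21, edgeR adjusted p = 0.0394), with aerosol libraries 4 and 5 far below the other 3. ALDOA, the muscle aldolase and the main one in most cultured cells, was at 372 ± 79.9 CPM after the aerosol and 504 ± 31.3 CPM in filtered air (SD, n = 5 each). Its groups did not overlap either, yet its log2 fold change of -0.44 ± 0.13 did not pass (edgeR adjusted p = 0.0967). Leaving out any single library other than aerosol 1 or 2 ended the call of ALDOC (edgeR adjusted p up to 0.114, without filtered air replicate 3), as did scaling by library size alone (0.0631) and leaving out aerosol libraries 4 and 5 (0.0621).

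Below the trioses, GAPDH, PGK1, PGAM1, ENO1 and LDHA fell, while PKM, between ENO1 and LDHA in the chain, did not pass. GAPDH, which makes NADH and is widely used as a reference gene in expression assays, was at 2082, 2215, 1942, 1255 and 1170.4 CPM in aerosol libraries 1 to 5, against 2961, 3096, 2967, 2909.9 and 2448 CPM in filtered air libraries 1 to 5. It fell by 39.8% with no overlap (log2 fold change -0.73 ± 0.17, edgeR adjusted p = 0.0368), and aerosol libraries 4 and 5 were far below the other aerosol libraries. Without those libraries its log2 fold change was -0.47 and past the threshold (edgeR adjusted p = 0.0201). Its call was lost with scaling by library size alone (edgeR adjusted p = 0.0756), with no filter on low counts (0.0622), and without aerosol replicate 3 or 4 or filtered air replicate 1, 2, 3 or 4 (up to 0.0992). The 62 identifiers named as GAPDH pseudogenes held counts equal to 0.374 to 0.400% of those on GAPDH in aerosol libraries and 0.105 to 0.265% in filtered air libraries, and the labels do not state how reads shared with them were counted. Pseudogene identifiers of TPI1, ENO1, PGAM1 and LDHA held at most 2.93% of the gene's counts in any library. Those of SLC2A3 held up to 15.3%, and those of RPE up to 9.99% in aerosol libraries and 4.71% in filtered air libraries.

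PGK1 (GRCh38.p14, chromosome X, 78104248 to 78129295), the first ATP-producing kinase of the pathway, was at 248, 235, 222, 233 and 222 CPM in aerosol libraries 1 to 5, against 379, 393, 486, 423 and 411 CPM in filtered air libraries 1 to 5. The 5 aerosol libraries lay close together and far below filtered air, libraries 4 and 5 included. PGK1 fell by 44.5% (log2 fold change -0.85 ± 0.09, edgeR adjusted p = 0.000755). PGAM1, which moves the phosphate group of phosphoglycerate, was at 132, 143, 109, 97.2 and 103 CPM in aerosol libraries 1 to 5, against 203, 198, 224, 199.6 and 189 CPM in filtered air libraries 1 to 5, and fell by 42.3% (log2 fold change -0.79 ± 0.12, edgeR adjusted p = 0.00630). ENO1, the enolase of most tissues, was at 1013, 1114, 1019.8, 723 and 573 CPM in aerosol libraries 1 to 5, against 1539.8, 1549, 1709, 1531 and 1407 CPM in filtered air libraries 1 to 5. It fell by 42.6% (log2 fold change -0.80 ± 0.16, edgeR adjusted p = 0.0194), with aerosol libraries 4 and 5 the lowest. ENO2, the enolase known from neurons, was at 29.9 ± 5.50 CPM after the aerosol and 48.1 ± 12.2 CPM in filtered air (SD, n = 5 each), and its log2 fold change of -0.69 ± 0.20 did not pass (edgeR adjusted p = 0.0780), although it did with DESeq2 (adjusted p = 0.0264) and without filtered air replicate 1 (edgeR adjusted p = 0.0438). ENO3, the muscle enolase, was barely counted, at 0.555 to 2.65 CPM over all 10 libraries, with a log2 fold change of 0.66 ± 0.48, which was 1.01 without filtered air replicate 3. The calls of PGK1 and PGAM1 held without each single library, and that of ENO1 was lost without filtered air replicate 2 or 3 (edgeR adjusted p up to 0.0600).

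LDHA (GRCh38.p14, chromosome 11, 18394563 to 18408425) encodes the lactate dehydrogenase subunit that favours turning pyruvate into lactate and had the smallest p of the 35 genes. It was at 384, 331, 376, 376 and 318 CPM in aerosol libraries 1 to 5, against 648, 599, 708, 676 and 746 CPM in filtered air libraries 1 to 5. The aerosol libraries held about the same level throughout, well below every filtered air library. LDHA fell by 47.1% (log2 fold change -0.92 ± 0.09, edgeR adjusted p = 0.000546), its call held without each single library, and its log2 fold change was -0.90 without aerosol libraries 4 and 5. LDHB, the subunit typical of heart, was at 155, 181, 221, 218 and 273 CPM in aerosol libraries 1 to 5, against 218, 218, 244, 219 and 296 CPM in filtered air libraries 1 to 5. Its groups overlapped, and the log2 fold change of -0.19 ± 0.15 did not pass (edgeR adjusted p = 0.561, 95% interval -0.50 to 0.13). It was -0.37 without aerosol libraries 4 and 5, -0.31 without aerosol replicate 5, and -0.10 without aerosol replicate 1 or filtered air replicate 5. Filtered air replicate 5 and aerosol replicate 5 were the highest libraries of their groups for LDHB.

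PKM encodes pyruvate kinase, the last ATP-producing step. It was at 746, 742, 721, 1081 and 1218 CPM in aerosol libraries 1 to 5, against 1085, 1029, 1014, 968 and 866 CPM in filtered air libraries 1 to 5. Aerosol libraries 1 to 3 lay below every filtered air library, while aerosol library 5 lay above all of them and aerosol library 4 just below the highest. Over all 10 libraries the log2 fold change was -0.14 ± 0.15 (edgeR adjusted p = 0.700, 95% interval -0.46 to 0.18). Without aerosol libraries 4 and 5 it was -0.44 and passed (edgeR adjusted p = 0.0227). With 1 aerosol library left out it was between -0.28, without replicate 5, and -0.08, without replicate 1, 2 or 3, and did not pass. Gene counts do not separate the M1 and M2 splice forms of PKM.

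**Figure D3:**
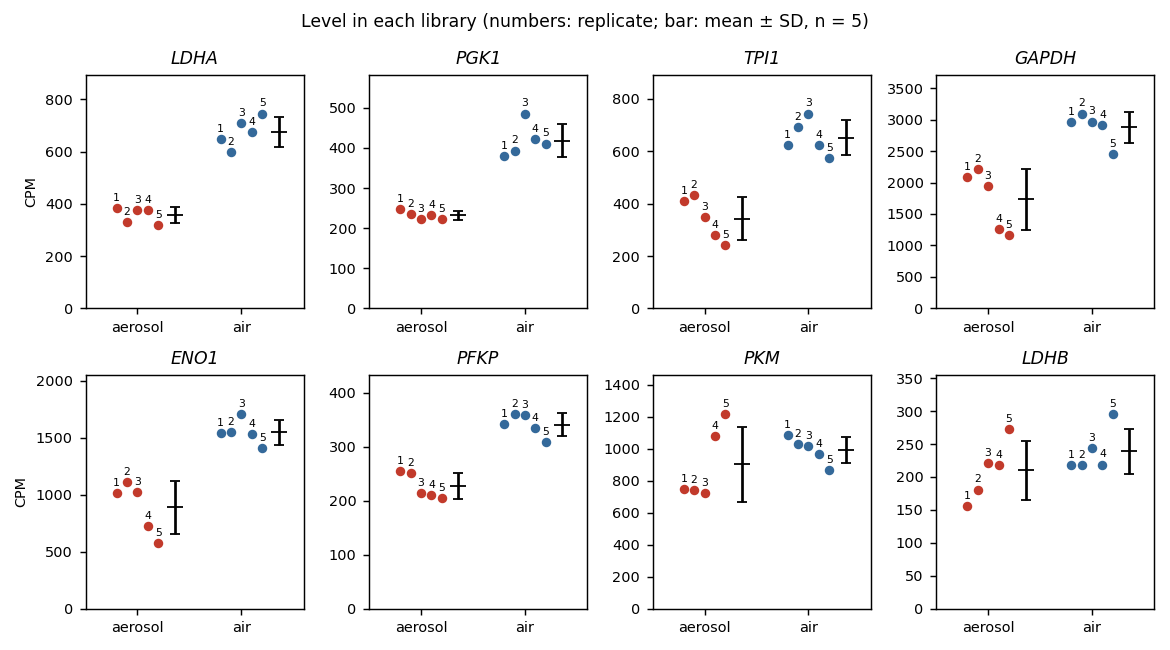
Level in CPM (y axes, from 0) of 8 glycolytic genes in each library, with aerosol left of filtered air; points carry the replicate number and bars give mean ± SD of 5. LDHA lies at 318 to 384 CPM and PGK1 at 222 to 248 CPM in the 5 aerosol libraries, TPI1, GAPDH and ENO1 are lowest in aerosol libraries 4 and 5, and PKM is highest there.

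The promoters of LDHA and PGK1, the members with the smallest p, are shown because the core of the hypoxia response element, the letters ACGTG, is well known from them. Each window runs from 250 bases before to 50 bases after a RefSeq start site (GRCh38.p14, plus strand), with ACGTG on either strand in capitals. LDHA has another RefSeq window, chr11:18396101-18396400, which holds no match and is not printed. The LDHA window printed is chr11:18394313-18394612 and the PGK1 window is chrX:78103998-78104297.
LDHA: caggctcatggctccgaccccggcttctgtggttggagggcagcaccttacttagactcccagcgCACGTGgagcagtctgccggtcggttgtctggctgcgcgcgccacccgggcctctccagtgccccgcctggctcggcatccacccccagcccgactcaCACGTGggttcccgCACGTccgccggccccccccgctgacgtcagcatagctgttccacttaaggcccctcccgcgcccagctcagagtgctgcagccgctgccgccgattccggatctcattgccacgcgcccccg
PGK1: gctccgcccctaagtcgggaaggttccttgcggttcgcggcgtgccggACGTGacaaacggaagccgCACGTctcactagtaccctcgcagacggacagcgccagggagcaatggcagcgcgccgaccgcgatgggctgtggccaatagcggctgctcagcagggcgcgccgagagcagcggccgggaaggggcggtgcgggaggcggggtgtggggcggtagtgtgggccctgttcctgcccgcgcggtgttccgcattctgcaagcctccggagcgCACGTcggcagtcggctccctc
The printed LDHA window holds 5 matches, 4 of them from 2 copies of the palindrome CACGTG, which reads the same on both strands and counts once on each. The PGK1 window holds 3 matches.

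RefSeq windows were found for 33 of the 35 genes, 61 windows in all, since some genes have several starts. ACGTG was present on either strand in 34.4% of these windows, against 21.4% of all 35116 promoter windows of the same length. Among windows of the 15 genes that fell the share was 31.0%, and among windows of genes that did not pass it was 37.5%. Counted by gene, a match in any window was present in 9 of the 15 genes that fell and in 8 of 18 that did not pass. That made 17 of the 33 genes, against 6790 of 27305 genes over all promoter windows. The order thus depended on the unit counted, and no difference was tested. With GCGTG counted as well, the shares were 59.0% of the genes' windows and 48.4% of all windows. A match is a string of letters and not a shown site of binding.

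Of the pentose phosphate genes, only TALDO1 fell. PGLS and PGD act in the oxidative branch that makes NADPH, and PGD was at 183 ± 17.2 CPM after the aerosol and 219 ± 13.7 CPM in filtered air (SD, n = 5 each), and its log2 fold change, -0.25 ± 0.09, did not pass (edgeR adjusted p = 0.152). PGLS was at levels of 6.80 to 14.5 CPM in aerosol libraries and 13.6 to 21.0 CPM in filtered air libraries. Its log2 fold change was -0.74 ± 0.24 (edgeR adjusted p = 0.124), and -0.47 without aerosol libraries 4 and 5. In the branch that shuffles sugars back to glycolysis, TALDO1, a transaldolase, was at 73.0, 57.1, 74.6, 59.6 and 71.9 CPM in aerosol libraries 1 to 5, against 79.6, 98.1, 114, 96.2 and 87.1 CPM in filtered air libraries 1 to 5. Its groups did not overlap, and it fell by 29.2% (log2 fold change -0.50 ± 0.12, edgeR adjusted p = 0.0499). That call rested on every library, since leaving out any single one ended it (edgeR adjusted p up to 0.137, without filtered air replicate 3), as did RLE scaling (0.0630), upper-quartile scaling (0.0979) and a filter of at least 1 CPM in 5 libraries (0.0578), and leaving out aerosol libraries 4 and 5 (0.0994).

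TKT, a transketolase and the other sugar-shuffling enzyme, was at 393, 360.3, 329, 349 and 255 CPM in aerosol libraries 1 to 5, against 489, 449, 423, 440.2 and 358 CPM in filtered air libraries 1 to 5. The groups overlapped through aerosol libraries 1 and 2, and the log2 fold change of -0.36 ± 0.12 did not pass (edgeR adjusted p = 0.131). RPIA and RPE, an isomerase and an epimerase of pentose phosphates, had positive log2 fold changes that did not pass. RPIA was at 11.9 ± 2.82 CPM after the aerosol and 10.7 ± 1.91 CPM in filtered air (SD, n = 5 each). Its log2 fold change of 0.16 ± 0.21 was 0.019 without aerosol libraries 4 and 5 or without aerosol replicate 5 alone, 0.049 without filtered air replicate 2 and 0.25 without aerosol replicate 1. RPE was at 29.5, 25.1, 20.6, 35.6 and 78.7 CPM in aerosol libraries 1 to 5, against 27.8, 31.3, 30.2, 43.2 and 28.2 CPM in filtered air libraries 1 to 5. Its positive log2 fold change of 0.24 ± 0.32 came with a single high library, aerosol replicate 5, and was -0.22 without it and -0.36 without aerosol libraries 4 and 5. It was 0.39 without aerosol replicate 3 and 0.36 without filtered air replicate 4.

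In glycogen metabolism PGM1 and GYS1 fell. PGM1, which links glucose 1-phosphate and glucose 6-phosphate, was at 40.3, 50.3, 37.0, 31.0 and 33.2 CPM in aerosol libraries 1 to 5, against 62.1, 65.8, 73.0, 62.2 and 53.1 CPM in filtered air libraries 1 to 5. It fell by 39.3% with no overlap (log2 fold change -0.72 ± 0.15, edgeR adjusted p = 0.0233). GYS1, the muscle-type glycogen synthase, was at 102, 81.8, 73.2, 80.8 and 64.1 CPM in aerosol libraries 1 to 5, against 137, 116, 134, 115 and 132 CPM in filtered air libraries 1 to 5. Every aerosol library lay below every filtered air library, and GYS1 fell by 36.5% (log2 fold change -0.66 ± 0.12, edgeR adjusted p = 0.0171).

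GBE1, the branching enzyme, had a log2 fold change of -0.24 ± 0.15 with overlapping groups, and of -0.16 without filtered air replicate 5. PYGL and PYGB, the liver and brain phosphorylases that release glucose 1-phosphate from glycogen, had log2 fold changes of -0.25 and -0.39 (edgeR adjusted p = 0.121 and 0.252). That of PYGB was -0.19 without aerosol libraries 4 and 5. PYGL was at 143, 156, 152, 156 and 145 CPM in aerosol libraries 1 to 5, against 169, 173, 172, 181 and 197 CPM in filtered air libraries 1 to 5. Its groups did not overlap, and the change did not pass. PGM2, a phosphopentomutase that also acts on glucose phosphates, differed by -0.40 ± 0.13 on the log2 scale, which did not pass (edgeR adjusted p = 0.117), also without overlap. The call of PGM1 was lost without aerosol replicate 3 or filtered air replicate 1, 2, 3 or 4 (edgeR adjusted p up to 0.0751) and without aerosol libraries 4 and 5 (0.0585). That of GYS1 was lost without filtered air replicate 1 or 3 (up to 0.0539).

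**Figure D4:**
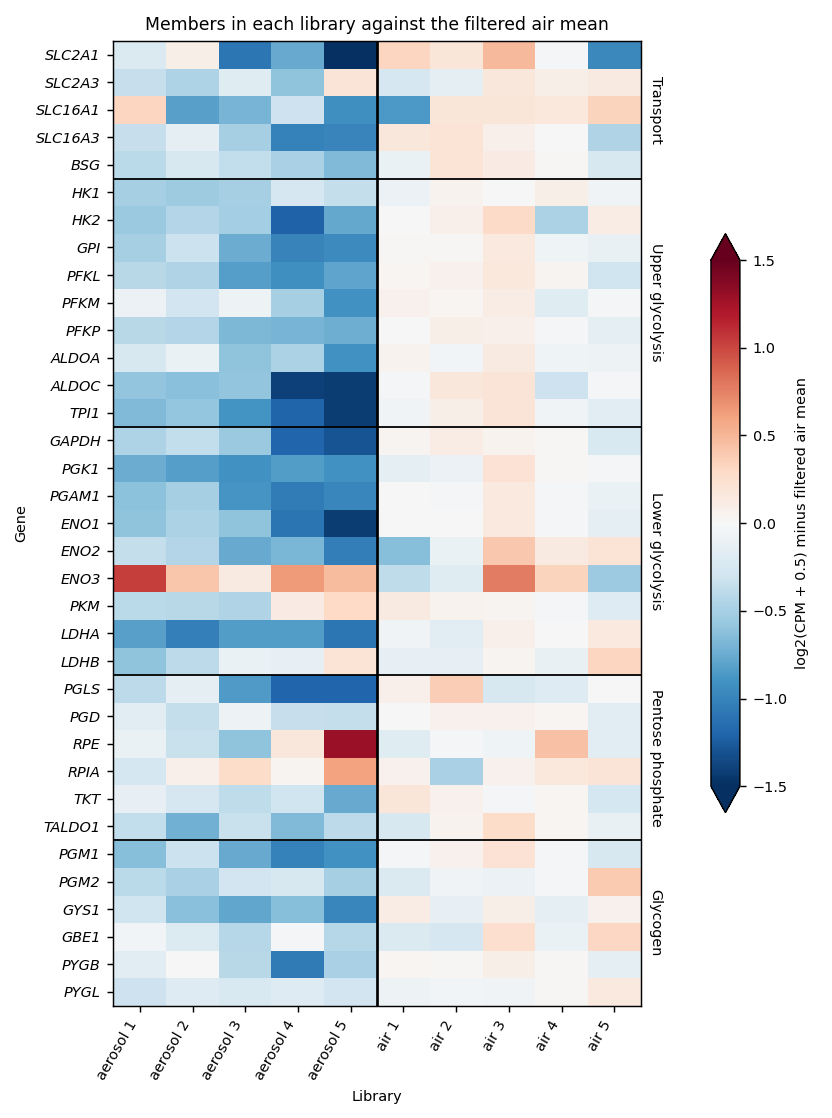
Log2 of CPM plus 0.5 in each library minus the filtered air mean (colour; blue lower, red higher) for the 35 genes in rows by role and the 10 libraries in columns, aerosol left of filtered air. The median of a column is -0.39 to -0.79 in aerosol libraries and -0.10 to 0.12 in filtered air libraries, and PKM is blue in aerosol libraries 1 to 3 and red in 4 and 5.

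Across libraries, the median of the 35 genes lay at -0.39, -0.39, -0.56, -0.66 and -0.79 on the log2 scale against the filtered air mean in aerosol libraries 1 to 5. The same median lay between -0.10 and 0.12 in the filtered air libraries. Upper glycolysis was at -0.50, -0.44, -0.61, -0.92 and -0.90 and pentose phosphate genes at -0.21, -0.29, -0.36, -0.32 and -0.37 in aerosol libraries 1 to 5. Of the 35 genes, 26 had their lowest level in aerosol library 4 or 5, the libraries with the highest shares of mitochondrially encoded genes and MALAT1, and the part of those shares in the result was not tested. Without both libraries, 11 genes fell, of which 10 were among the 15 with all libraries and the other was PKM, against 1.02% of all genes tested there. The median log2 fold change was then -0.44. Leaving out 1 library at a time gave between 5 genes lower, without filtered air replicate 3, and 16, without aerosol replicate 2. It gave 8 without aerosol replicate 3 and 9, 7 and 9 without filtered air replicates 1, 2 and 4, and PFKP, TPI1, PGK1, PGAM1 and LDHA fell in all 10 such fits. Lower calls over all genes numbered 73 without filtered air replicate 3 and 374 without aerosol replicate 2, against 281 with all libraries. They numbered 112 without aerosol replicate 3 and 105, 77 and 101 without filtered air replicates 1, 2 and 4. The loss of lower calls was thus not limited to the 35 genes. Over all genes 281 fell and 327 rose, and this split was 171 and 482 with upper-quartile scaling and 318 and 244 with scaling by library size alone, with 12 of the 35 genes lower under either.

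Related enzymes or carriers were compared in pairs by the ratio of their counts within each library, which needs no scaling between libraries. Most pairs were isozymes of the same step. Of 10 such ratios, LDHA over LDHB was the only one whose groups did not overlap. LDHA made up 71.2, 64.7, 62.9, 63.3 and 53.8% of the counts on both genes in aerosol libraries 1 to 5, against 74.9, 73.3, 74.3, 75.5 and 71.6% in filtered air libraries 1 to 5. The log2 ratio was lower by 0.72 after the aerosol (0.79 ± 0.39 in aerosol and 1.51 ± 0.11 in filtered air, SD, n = 5 each, exact two-sided permutation test p = 0.00794, the smallest it can give). Adjusted over the 10 ratios, p was 0.0794, the lowest that a single ratio at that limit can reach, so it did not pass. Without aerosol libraries 4 and 5 the difference was -0.53.

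ALDOC over ALDOA differed by -0.49 on the log2 scale (exact permutation test p = 0.0238, adjusted 0.119) with groups that overlapped, and by -0.31 without aerosol libraries 4 and 5. The other 8 ratios had adjusted p of 0.317 or more in the same exact permutation test. PFKP over PFKL was the steadiest, at 2.03 ± 0.10 in aerosol libraries and 1.93 ± 0.09 in filtered air libraries (SD, n = 5 each). HK2 over HK1 differed by -0.28, ENO2 over ENO1 by 0.18, and SLC2A3 over SLC2A1 by 0.43, each with a spread wider than the difference in at least 1 group. Leaving out 1 library moved the ratio HK2/HK1 to -0.10 (aerosol replicate 4) or -0.42 (filtered air replicate 4) and the ratio ENO2/ENO1 to 0.016 (filtered air replicate 1). It moved the ratio SLC2A3/SLC2A1 to between 0.093 (aerosol replicate 5) and 0.71 (filtered air replicate 5).

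**Figure D5:**
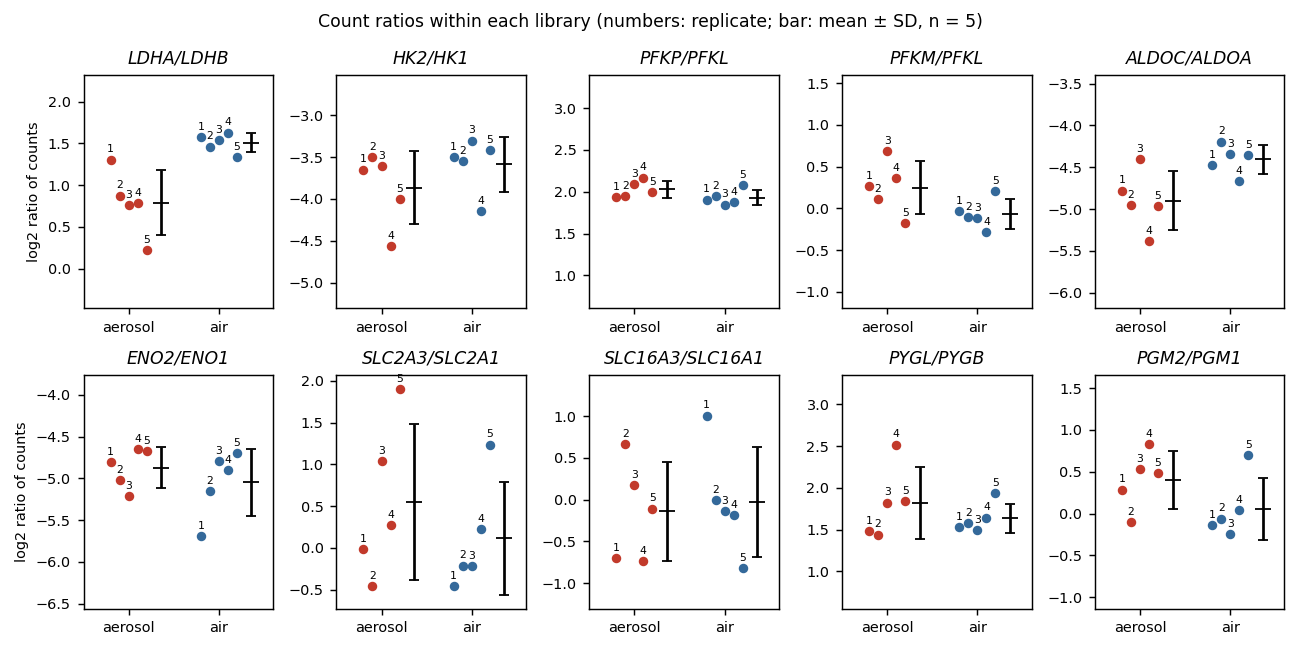
Log2 ratio of counts of 10 pairs of related enzymes or carriers within each library (y axes, not the same in each panel), aerosol left of filtered air. Points carry the replicate number and bars give mean ± SD of 5. LDHA over LDHB is lower in all 5 aerosol libraries, and the other 9 ratios overlap between groups.

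The other genes of the same pathways came from a list of 60 further enzymes, regulators and carriers. Of these, 48 passed the filter on low counts, 2 fell and none rose (4.17% lower, against 1.39% of all genes tested), with a median log2 fold change of -0.18. PRPS1, which makes the nucleotide precursor PRPP from ribose 5-phosphate, was at 60.6 CPM after the aerosol and 81.8 CPM in filtered air on average (log2 fold change -0.43, edgeR adjusted p = 0.0407). TXNIP, an arrestin-like protein that restrains glucose uptake, was at 92.0 CPM after the aerosol and 135.5 CPM in filtered air (log2 fold change -0.56, edgeR adjusted p = 0.0326). Both calls were lost in most of the 10 fits with 1 library left out. That of PRPS1 was lost in 8 (edgeR adjusted p up to 0.117, without filtered air replicate 2). That of TXNIP was lost in 7 (up to 0.0997, without filtered air replicate 3).

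The pyruvate dehydrogenase and citric acid cycle genes that take over where glycolysis ends had 1 of 30 lower and none higher (3.33%, against 1.39% of all genes tested), with a median of -0.16. With 2 and 1 calls, nothing about either list is read from the shares called. Of the 30 genes of the citric acid cycle list, 25 (83.3%) had a log2 fold change below 0, against 50.4% of all genes tested. In 6 of the 30 the groups did not overlap, with every aerosol library lower, against 3.93% of all genes tested. The 1 citric acid cycle gene called was CS, citrate synthase (log2 fold change -0.46, edgeR adjusted p = 0.0488). Its call was lost in 9 of the 10 fits with 1 library left out (edgeR adjusted p up to 0.126, without filtered air replicate 4). Targets of hypoxia-inducible factors outside glycolysis had 9 of 27 tested genes lower and none higher (33.3% lower), with a median of -0.48. Among them were CA9, LOX, ZNF395, STC2 and BHLHE40. CA9, a carbonic anhydrase of the cell surface, averaged 4.06 CPM after the aerosol and 14.3 CPM in filtered air (log2 fold change -1.82, edgeR adjusted p = 0.00963). These lists stand side by side as counts, and differences between them were not tested.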

How the data were processed

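Gene expression was measured by RNA-seq in 10 libraries of AC16 cells, 5 after e-cigarette aerosol and 5 after filtered air, grouped by the treatment in the labels; 10 miRNA libraries were not analysed here. Per the labels' protocols, TRIzol was used for RNA and a SMARTER mRNA kit for the libraries. The deposited files hold raw read counts per gene; the build hg38 and the tools HISAT, DESeq 1.8.3 and featureCounts 1.5.0-p3 are named, with no role given, per the submitters' processing notes. Strand setting, treatment of reads that map to several places and annotation release were not stated, so overlapping, antisense and near-identical genes may share counts.

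From these counts, edgeR 4.0.16 (R 4.3.3) was run with TMM scaling, its filter on low counts, which kept 20166 of 58735 identifiers, and the robust quasi-likelihood test on group alone, with Benjamini-Hochberg adjustment over all genes tested and a threshold of 0.05. CPM values used the TMM-scaled library size. Ratios of paired enzymes or carriers used counts plus 0.5 and an exact permutation test over samples. Alternatives were other scalings, filters, thresholds, tools (DESeq2 1.42.0, limma-voom with limma 3.58.1), a replicate block and left-out libraries. Libraries of a group differed by far more than sampling noise. Intervals on shares cover counting error only.

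The members, the lists and the leaving out of aerosol libraries 4 and 5 were chosen with earlier results of these data known. All 35 members could be named, with values in every library for the 14 called members of smallest p; such values for the others shown were chosen after they were seen. Of other lists, up to 6 called genes were taken by smallest p, of which 1 is not reported here. Positions and promoter windows come from RefSeq (GRCh38.p14), matched by symbol.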

Additional observations from a re-analysis of the deposited data

Results flagged for a closer look

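Within each group of 5, the highest and lowest library was compared with its nearest neighbour, relative to the range of the group. Of 96 groups of values, 8 had a library far from the others, and chance alone flags about 1 in 20.

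RPE, the pentose phosphate epimerase, was at 78.7 CPM in aerosol replicate 5, against 20.6 to 35.6 CPM in the other aerosol libraries, and at 43.2 CPM in filtered air replicate 4, against 27.8 to 31.3 CPM in the other filtered air libraries. RPIA was at 7.36 CPM in filtered air replicate 2 and at 11.0 to 12.1 CPM in the others. SLC16A1, a lactate carrier, was at 35.6 CPM in filtered air replicate 1 and at 72.6 to 81.9 CPM in the others.

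Filtered air replicate 5 was apart for 3 genes. GAPDH was at 2448 CPM there and at 2909.9 to 3096 CPM in the other filtered air libraries, PGD at 195 CPM and at 219 to 228 CPM in the others, and PGM2 at 86.0 CPM and at 56.5 to 64.0 CPM in the others. MALAT1 took 3.81% of counts in aerosol replicate 5 and 0.784 to 1.46% in the other aerosol libraries.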

How the results depend on the processing

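No setting run gave a higher call among the 35 genes. The number lower was 5 at an adjusted p under 0.01, 4 in edgeR's test against a 1.2-fold change, and 5 to 16 with 1 library left out. Genes called among all tested numbered 608, 1585 with DESeq2, 87 at 0.01, 134 against 1.2-fold, and 183 to 757 with 1 library left out. Of 735 values of single members under an alternative, 632 kept direction and side of the threshold, 89 lost the call, 12 gained it and 2 reversed. All 89 losses fell on the 15 genes called with all libraries. The 632 include values of the 20 other genes that simply stayed uncalled, so the pooled count does not measure how steady the calls are. Both reversals were RPE, at -0.22 without aerosol replicate 5 (-0.22 to 0.39 over all left-out libraries) and -0.36 without aerosol libraries 4 and 5.

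With 1 library left out, the log2 ratio difference was -0.85 to -0.57 for the ratio LDHA/LDHB and -0.62 to -0.37 for the ratio ALDOC/ALDOA, and both passed without aerosol replicate 3 (-0.71 and -0.62, exact permutation test, adjusted p = 0.0397). SLC16A3 over SLC16A1 ran from -0.31 to 0.15, reversing without aerosol replicate 1 (0.028) or 4 (0.035) or filtered air replicate 1. Without aerosol libraries 4 and 5 it was 0.073, HK2 over HK1 was 0.00053 and PYGL over PYGB was -0.056. The cause was not tested.

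Other pathway genes lower numbered 2, against 1 with RLE scaling, 0 with upper-quartile scaling, at 0.01, against 1.2-fold and without aerosol libraries 4 and 5, and 0 to 2 with 1 library left out. Citric acid cycle genes numbered 1, against 0 with RLE or upper-quartile scaling, at least 1 CPM in 5 libraries, 0.01 or 1.2-fold, 3 with DESeq2, and 0 to 1 with 1 library left out. Outside targets of hypoxia-inducible factors numbered 9, against 5 with upper-quartile scaling, 2 at 0.01 and against 1.2-fold, and 3 to 9 with 1 library left out.

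Same-numbered libraries deviated together little (r = 0.00781 to 0.0529, all above 0). Aerosol replicates 1, 3 and 5 had their highest r with the filtered air library of the same number. Correlations this small over all genes cannot show whether the numbers mark pairs. With the replicate number as a block, 17 of the 35 genes were lower (TALDO1 lost, adjusted p = 0.0758; SLC16A3, HK2 and TKT gained), 450 genes were called in all, and the 3 lists had 0, 0 and 5 lower. In the paired sign-flip test the ratio LDHA/LDHB had an exact p of 0.0625, the smallest that 5 pairs allow. The lowest count of a member in a library was 51, for ENO3, and the part of depth in calls that did not pass was not tested.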
